A study of Mus musculus with 12 samples.

Results

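The platelet-derived growth factor (PDGF) family was described here in granule cell progenitors (GCPs), the proliferating precursors on the surface of the young cerebellum, with and without an activated hedgehog signal. The family comprised 4 ligand genes (Pdgfa, Pdgfb, Pdgfc and Pdgfd) and 2 receptor genes (Pdgfra and Pdgfrb), 6 of the 18194 genes measured, chosen by exact gene symbol. They were read by 14 of the 45101 probe sets of an Affymetrix mouse array, and the brightest of a gene's probe sets, averaged over the 12 arrays, served as its main one. The family was taken up with a rise of Pdgfa in mutant cells already known, so the mutant differences of Pdgfa are given as a description without a test.

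There were 4 groups of 3 arrays at postnatal day 8, each array made from a pool of 5 mice of a mixed C57BL/6 and Swiss Webster background. Wild type GCPs from the cerebellar hemispheres and from the vermis (the midline) were compared with SmoM2 GCPs from the same regions. The mutant mice carried Atoh1-CreER/+ and R26LSL-SmoM2-YFP, in which an activated Smoothened, the signal transducer of the hedgehog pathway, is fused to YFP and held back by a stop cassette at the Rosa26 locus. Tamoxifen at 200 µg per g, given at postnatal day 2, released it in cells that express the Atoh1-driven Cre; Atoh1 is active in granule cell progenitors of the cerebellum. The sources used here do not state if wild type mice were also treated with tamoxifen. Cells were enriched on a Percoll gradient, so each array is a bulk sample in which a smaller number of cells of a type and less RNA per cell cannot be told apart. The series asks about a difference between lateral and medial progenitors in sensitivity to high hedgehog signalling.

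PDGF ligands are secreted dimers that bind and pair receptor tyrosine kinases at the cell surface. PDGF-A acts through the alpha receptor (Pdgfra), PDGF-B binds both receptors, and PDGF-C and PDGF-D are secreted with an extra CUB domain that proteases must remove before they bind mainly the alpha and the beta receptor, respectively. In the brain the alpha receptor marks oligodendrocyte progenitors, which divide in response to PDGF-A from neurons and astrocytes, whereas PDGF-B from endothelial cells recruits pericytes through the beta receptor (Pdgfrb).

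All values are log2 expression values from robust multi-array averaging (RMA) as deposited, and a difference of 1 is a doubling on that scale. Each array had a median of 4.81 to 4.87, a lower quartile of 3.24 to 3.42 and an upper quartile of 6.90 to 7.10. The labels were checked against hedgehog readouts: Gli1 lay between 6.83 and 7.41 on the wild type arrays and between 8.55 and 8.88 on the SmoM2 arrays, and Hhip, which captures hedgehog ligand at the cell surface, between 5.45 and 6.47 in the former and between 8.58 and 8.78 in the latter. The progenitor factors Atoh1 (group means 7.85 to 8.98), Pax6 (10.46 to 11.04) and Zic1 (12.75 to 12.99) were above the upper quartile of every array in every group. So were Mbp, a myelin protein (10.83 to 12.65), and Fabp7, a glial lipid carrier (12.19 to 12.65), which are defining markers of other cell types. Nothing in the labels says whether hemisphere and vermis arrays with the same number came from the same mice, and the p-values measure the spread between pools.

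Pdgfa was the ligand with the large mutant difference. On its main probe set the wild type hemisphere arrays read 6.29, 6.14 and 6.65 and the SmoM2 hemisphere arrays 8.66, 9.18 and 8.88. The wild type vermis arrays read 6.28, 6.84 and 6.82 and the SmoM2 vermis arrays 8.83, 9.25 and 8.88. Every SmoM2 array lay above every wild type array, with a gap from 6.84 to 8.66. Mean levels in the wild type were 6.36 ± 0.26 (hemisphere) and 6.64 ± 0.32 (vermis), and in SmoM2 8.91 ± 0.26 and 8.99 ± 0.23 (SD, n = 3 each). The difference was 2.55 (95% confidence interval 2.16 to 2.95), or 5.86-fold, in the hemisphere and 2.34 (1.95 to 2.74), or 5.07-fold, in the vermis. These intervals describe the spread between arrays and are no test, since the rise was known when the family was taken up. The other Pdgfa probe set gave 2.29 and 2.25. Of all 18194 genes, 27 in the hemisphere and 31 in the vermis, Pdgfa included, were higher in SmoM2 by at least as much.

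The response of Pdgfa did not pass a test for a difference between regions, which had not been used to choose the gene. The mutant difference was larger in the hemisphere by 0.21, with an interval from -0.35 to 0.77 (limma, adjusted p = 1). Within a genotype the regions overlapped, and hemisphere minus vermis was -0.29 in wild type (-0.68 to 0.11, limma adjusted p = 0.935) and -0.08 in SmoM2 (adjusted p = 1). The order of the groups was therefore SmoM2 vermis, SmoM2 hemisphere, wild type vermis and wild type hemisphere, with no difference beyond the spread between neighbours of 1 genotype.

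**Figure D1:**
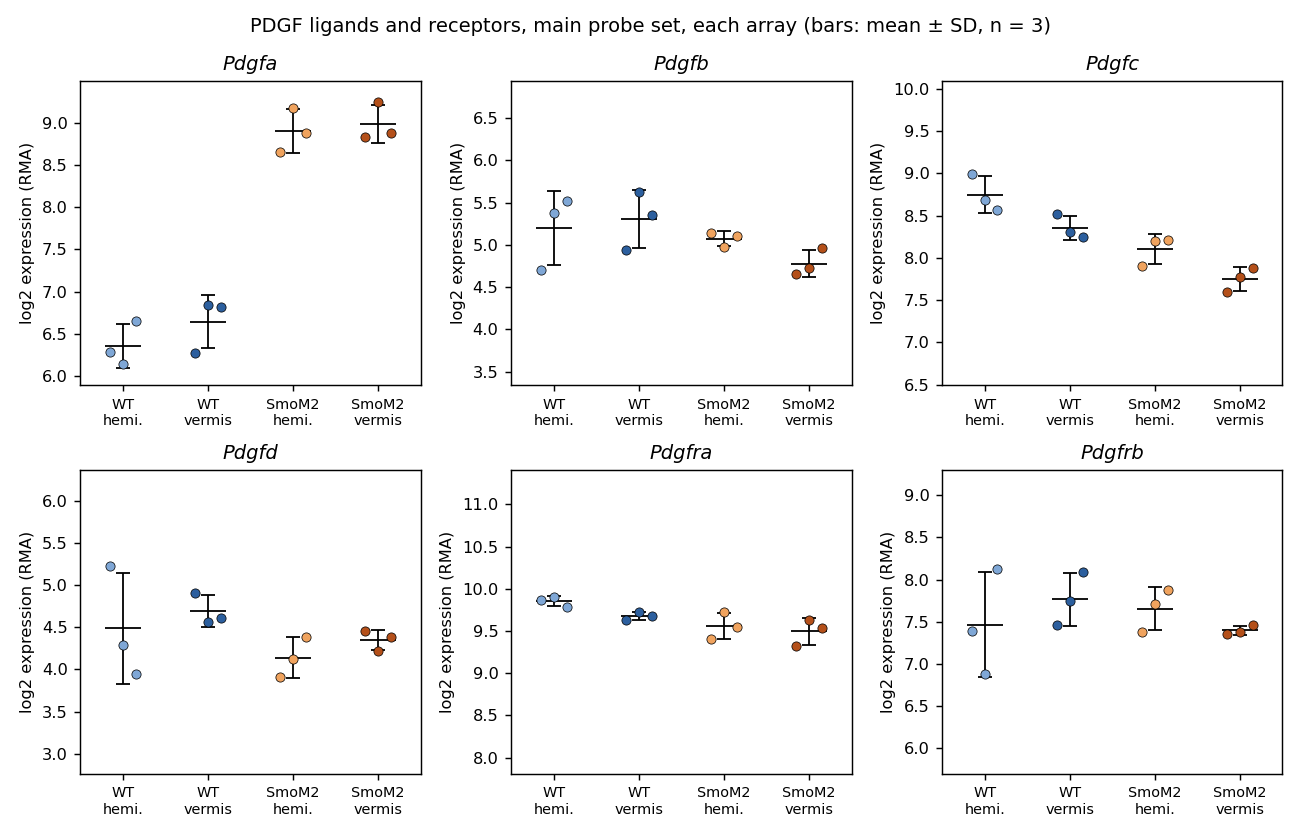
Main probe sets of the 6 genes on every array. Points are arrays (replicates 1 to 3 from left to right), the horizontal line and bars are the mean ± SD of 3 arrays, and each vertical axis spans the same number of log2 units. Pdgfa is separated by genotype, Pdgfc is lower in SmoM2 within each region, and the other 4 genes move less or overlap.

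The promoters of Pdgfa and Pdgfc are shown because these were the 2 genes of the family whose genotypes did not overlap on any probe set in either region, in opposite directions. On main probe sets 31.7% of all genes did not overlap in the hemisphere and 39.8% in the vermis. Windows of 300 bases, 250 before to 50 after a transcription start, were taken from RefSeq (GRCm38.p6), in which Pdgfa has 2 starts. They were searched on both strands for GACCACCCA, the site of the hedgehog transcription factors of the GLI family, for the GC box GGGCGG, which Sp1 binds and which is typical of promoters without a TATA box, and for TATAAA. The capitals mark GC boxes.
Pdgfa, upstream start, chr5:138994895-138995194, minus strand: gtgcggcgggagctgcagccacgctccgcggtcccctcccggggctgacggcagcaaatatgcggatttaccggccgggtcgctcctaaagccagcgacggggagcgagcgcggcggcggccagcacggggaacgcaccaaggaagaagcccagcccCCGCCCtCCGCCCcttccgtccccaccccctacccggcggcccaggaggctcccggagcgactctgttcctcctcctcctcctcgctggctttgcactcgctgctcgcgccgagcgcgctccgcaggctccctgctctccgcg
Pdgfa, downstream start, chr5:138994232-138994531, minus strand: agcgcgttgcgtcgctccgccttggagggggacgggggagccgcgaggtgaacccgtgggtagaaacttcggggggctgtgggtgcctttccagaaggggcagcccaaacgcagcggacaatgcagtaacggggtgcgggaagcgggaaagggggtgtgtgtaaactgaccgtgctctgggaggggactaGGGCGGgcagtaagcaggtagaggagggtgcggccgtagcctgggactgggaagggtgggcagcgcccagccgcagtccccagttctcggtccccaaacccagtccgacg
Pdgfc, chr3:81036166-81036465, plus strand: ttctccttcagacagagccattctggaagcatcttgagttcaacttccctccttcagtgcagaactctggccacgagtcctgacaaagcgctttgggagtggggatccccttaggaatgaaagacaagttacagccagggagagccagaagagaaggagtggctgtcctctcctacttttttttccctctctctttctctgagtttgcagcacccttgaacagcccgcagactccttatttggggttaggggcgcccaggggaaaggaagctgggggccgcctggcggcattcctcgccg

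The upstream window of Pdgfa held 2 GC boxes in a GC content of 73.3%, and the downstream window 1 GC box at 67%. The Pdgfc window held 0 GC boxes at 55%, against a median of 52.7% over all 32851 windows. Of all windows 35.7% held a GC box and 19.5% held 2 or more. The GLI letters were in 0 of these 3 windows and in 0 of the windows of Pdgfra and Pdgfd, and in 0.253% of all windows. A missing match says only that these letters are not in these 300 bases. TATAAA was in none of the Pdgfa, Pdgfc and Pdgfra windows and once in that of Pdgfd, chr9:6168236-6168535, against 13.6% of all windows.

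Pdgfc, the ligand that tissue plasminogen activator cleaves into its active form, was lower in SmoM2 in both regions. Its main probe set read 8.99, 8.69 and 8.57 in wild type hemisphere and 7.90, 8.20 and 8.21 in SmoM2 hemisphere. In the vermis the values were 8.52, 8.31 and 8.25 in wild type and 7.60, 7.77 and 7.88 in SmoM2. The genotypes did not overlap within either region, although the lowest wild type vermis array (8.25) was close to the highest SmoM2 hemisphere array (8.21). Pdgfc fell by 0.65 ± 0.13 (SE) in the hemisphere (1.57-fold, limma adjusted p = 0.0048) and by 0.61 ± 0.13 in the vermis (1.52-fold, limma adjusted p = 0.00714). Both calls held without any 1 array, with adjusted p up to 0.0305 and 0.0397. The other Pdgfc probe set fell by 0.68 and 0.52, with limma adjusted p of 0.0149 and 0.0485 when each of 34958 probe sets was tested, of which 12.8% and 13.3% passed. Pdgfc was the 1 gene to pass of the 5 tested (all but Pdgfa), in each region, where 14.8% of all genes passed in the hemisphere and 17% in the vermis.

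For Pdgfc, hemisphere minus vermis was 0.39 ± 0.13 in wild type and 0.35 ± 0.13 in SmoM2 (SE). The 3 hemisphere arrays lay above the 3 vermis arrays in both genotypes, as was the case for 8.76% of all genes in wild type and 10.7% in SmoM2. Neither difference passed (limma adjusted p = 0.498 and 1). Same-numbered hemisphere and vermis arrays of 1 genotype deviated together, and with this pairing as a random block the adjusted p was 0.0871 and 0.273. Averaged over both genotypes, a contrast added after the values were seen, the difference was 0.37 with limma adjusted p = 0.149 without a block and 0.0154 with the random block, where 0.467% and 1.43% of all genes passed. A fixed block by replicate number over both genotypes gave 0.194, so the call rests on the random block. On the other Pdgfc probe set the regions differed by 0.48 in wild type and 0.33 in SmoM2, and in SmoM2 they overlapped. From high to low, Pdgfc averaged 8.75 in the wild type hemisphere, 8.36 in the wild type vermis, 8.10 in the SmoM2 hemisphere and 7.75 in the SmoM2 vermis. The effect of the mutation on Pdgfc differed between regions by -0.04 (interval -0.45 to 0.36, limma adjusted p = 1).

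Pdgfb, the ligand of endothelial cells, was near the array medians. In the vermis its main probe set read 4.94, 5.63 and 5.35 in wild type and 4.65, 4.72 and 4.96 in SmoM2, and in the hemisphere 4.70, 5.38 and 5.52 in wild type and 5.14, 4.97 and 5.11 in SmoM2. The genotypes overlapped in both regions, through replicate 1 of each wild type group, which was the lowest of its group. The difference was -0.53 ± 0.20 (SE) in the vermis (limma adjusted p = 0.0823) and -0.13 ± 0.20 in the hemisphere (adjusted p = 0.695). The vermis difference passed without wild type hemisphere replicate 1 (-0.53, adjusted p = 0.0247), without wild type vermis replicate 1 (-0.71, 0.0288), with array weights (-0.58, 0.0195) and, barely, with only the vermis arrays in the fit (0.0498). The dimmer Pdgfb probe set, with a mean of 3.91 over the 12 arrays, gave 0.08 and 0.00 in hemisphere and vermis, and differences at such low values are compressed by the summary method.

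Endothelial markers were measured beside Pdgfb. Of 11 measured of 12 listed, 4 were lower in SmoM2 in the vermis and 1 in the hemisphere, with 0 higher, where 9.46% and 7.18% of all genes were lower. Slco1a4, a transporter of the blood-brain barrier, had the largest difference and fell in both regions (-1.56 in the vermis, limma adjusted p = 7.78e-07, and -1.27 in the hemisphere, 5.19e-06). The other 3 passed in the vermis alone. A difference between the regions' mutant effects passed for 0 of the 11, but also for 0 of all 18194 genes, so this count says nothing particular to endothelial markers. Its estimates, hemisphere minus vermis, were above 0 for all 11, with a median of 0.51, beside 0.01 over all genes. This was not particular to endothelial markers. The estimates were also above 0 for all 12 markers of myelinating cells (median 0.42) and all 9 of Purkinje cells and interneurons (0.24). They were below 0 for all 9 microglial markers (-0.34), and other lists had both signs. The markers of a list share the same arrays. Between genotypes, in vermis and hemisphere, Cldn5, a tight junction protein, differed by -0.89 (limma adjusted p = 0.0483) and -0.10. Tek, an angiopoietin receptor, differed by -0.81 (0.0341) and -0.09, and Sox17, an endothelial transcription factor, by -0.61 (0.0467) and 0.05. The mean over the list ranged from 5.87 to 6.09 in wild type vermis and from 5.13 to 5.51 in SmoM2 vermis, and in the hemisphere from 5.57 to 6.29 and from 5.69 to 5.81. The list did not overlap between genotypes in the vermis and did so in the hemisphere, while Pdgfb overlapped in both. The part of endothelial RNA in the Pdgfb values was not tested.

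Pdgfd, a ligand of the beta receptor, had a mean of 4.42 over the 12 arrays on its main probe set, below the array medians. Wild type arrays read 5.22, 4.29 and 3.95 (hemisphere) and 4.91, 4.56 and 4.61 (vermis), and SmoM2 arrays 3.91, 4.12 and 4.39 (hemisphere) and 4.45, 4.22 and 4.39 (vermis). Wild type hemisphere replicate 1 stood above all the others, and the genotypes overlapped in the hemisphere but not in the vermis. Of all genes 39.8% did not overlap in the vermis. The differences of -0.35 ± 0.24 (SE) and -0.34 ± 0.24 in hemisphere and vermis did not pass (limma adjusted p = 0.348 and 0.342), and without wild type hemisphere replicate 1 the hemisphere difference was 0.02. The other Pdgfd probe sets had means of 2.69 and 2.38, under each array's lower quartile, and their mutant differences lay between -0.08 and 0.05. On these probe sets the genotypes overlapped in both regions.

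Pdgfra, the alpha receptor, was far above the upper quartile of every array, and on its main probe set all 12 arrays lay between 9.32 and 9.90. Hemisphere arrays read 9.87, 9.90 and 9.79 for wild type and 9.41, 9.72 and 9.55 for SmoM2. Vermis arrays read 9.63, 9.73 and 9.68 for wild type and 9.32, 9.63 and 9.54 for SmoM2. The genotypes did not overlap in the hemisphere, as was the case for 31.7% of all genes, and met in the vermis, where the non-overlapping share of all genes was 39.8%. Differences were -0.30 ± 0.11 (SE) in the hemisphere (limma adjusted p = 0.0832) and -0.18 ± 0.11 in the vermis (adjusted p = 0.267), and neither passed. The hemisphere difference passed after renewed quantile normalization (-0.34, adjusted p = 0.0432) and with trended and robust moderation (0.0453).

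Averaged over both regions, a contrast added after the values were seen, Pdgfra differed by -0.24 ± 0.08 (SE, limma adjusted p = 0.029, where 35.5% of all genes passed). With the pairing of hemisphere and vermis arrays as a random block the adjusted p was 0.0596, where 23.7% passed. Unblocked, leaving out wild type hemisphere replicate 2 gave 0.0566, wild type vermis replicate 2 or 3 gave 0.062 or 0.0506, SmoM2 hemisphere replicate 1 or 3 gave 0.0756 or 0.0559, SmoM2 vermis replicate 1 gave 0.0792, and averaging the probe sets gave 0.0556. The probe set with a mean of 8.80 differed by -0.63 (hemisphere) and -0.34 (vermis), and that with a mean of 6.01 by -0.28 and -0.03, none of which passed over all probe sets. The interval of the main probe set reached from -0.53 to -0.06 in the hemisphere and from -0.41 to 0.05 in the vermis.

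The oligodendrocyte lineage, in which Pdgfra is the defining receptor of progenitors, was measured beside it. Of 15 progenitor markers 13 were measured, and in SmoM2 3 were higher and 3 lower in the hemisphere (all genes 7.62% and 7.18%) and 3 higher and 4 lower in the vermis (all genes 7.56% and 9.46%). Olig2, a basic helix-loop-helix factor that specifies the lineage, rose by 2.10 and 1.47 (hemisphere and vermis), and its relative Olig1 by 1.75 and 1.09. Sox10, a factor of the whole lineage, differed by -0.76 and -1.34, Gpr17, a receptor of committed precursors, by -1.03 and -1.83, and Enpp6, a marker of newly forming oligodendrocytes, by -1.28 and -1.52, each passing in both regions. Cspg4, the NG2 proteoglycan of progenitors and pericytes, differed by -0.07 (limma adjusted p = 0.806) and -0.21 (0.393). The mean over the progenitor list ranged from 7.08 to 7.31 and from 7.34 to 7.42 in wild type hemisphere and vermis and from 7.09 to 7.48 and from 7.09 to 7.24 in SmoM2. The lowest of these markers was Nkx2-2, with group means from 3.91 to 4.74.

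All 12 measured markers of myelinating cells (of 13 listed) were lower in SmoM2 in both regions, where 7.18% (hemisphere) and 9.46% (vermis) of all genes were lower. Their medians were -1.24 and -1.74, beside -0.05 and -0.06 over all genes. Mobp, Mag and Mog, proteins of the myelin sheath, differed by -1.39, -1.40 and -1.54 in the hemisphere and by -1.93, -1.87 and -1.83 in the vermis, and Ugt8a, an enzyme of myelin lipid synthesis, by -1.47 and -1.91, while the Pdgfra differences were -0.30 and -0.18. The part of oligodendrocyte lineage RNA in the Pdgfra and Pdgfa values was not tested.

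Pdgfrb, the beta receptor of pericytes and fibroblasts, varied widely between wild type arrays. Its main probe set read 7.39, 6.88 and 8.12 in wild type hemisphere and 7.38, 7.71 and 7.88 in SmoM2 hemisphere, which overlapped fully. In the vermis the wild type arrays read 7.46, 7.75 and 8.09 and the SmoM2 arrays 7.35, 7.38 and 7.46. The highest SmoM2 array met the lowest wild type array at this rounding and lay just below it. Of all genes 39.8% did not overlap between genotypes in the vermis. The differences were 0.20 ± 0.24 (SE) in the hemisphere (limma adjusted p = 0.615) and -0.37 ± 0.24 in the vermis (adjusted p = 0.3). Without wild type hemisphere replicate 2 the hemisphere value was -0.10. The dimmer probe set gave -0.03 and -0.40 (adjusted p over probe sets 0.915 and 0.12). The difference between the regions' mutant effects was 0.57, with an interval from -0.17 to 1.31 (limma adjusted p = 1).

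Of 11 pericyte and mural cell markers 3 were lower in SmoM2 in the vermis and 1 in the hemisphere, with 0 higher, where 9.46% and 7.18% of all genes were lower. Rgs5, a signalling regulator typical of pericytes, differed by -0.96 in the vermis (limma adjusted p = 0.0109) and 0.04 in the hemisphere, and Higd1b by -0.76 (0.0322) and -0.24. Vtn, a matrix glycoprotein of pericytes, differed by -1.11 and -0.81 and passed in both. The mean over the list ranged from 6.16 to 6.39 in wild type vermis and from 5.68 to 6.04 in SmoM2 vermis, and from 5.92 to 6.47 and from 5.78 to 6.15 in the hemisphere. Wild type hemisphere replicate 3 was the highest array for Pdgfrb, for this list and also for the endothelial list (6.29). The lowest arrays differed, with wild type hemisphere replicate 2 for Pdgfrb (6.88) and SmoM2 vermis replicate 1 for this list (5.68). Meningeal fibroblast markers, 11 of 11 measured, moved in both directions. In the SmoM2 hemisphere 2 were higher and 4 lower (all genes 7.62% and 7.18%), and in the SmoM2 vermis 1 and 3 (all genes 7.56% and 9.46%). Ogn, a small proteoglycan of the matrix, fell (-2.21 and -1.60), as did Serping1, an inhibitor of complement (-1.23 and -1.35), whereas Lum, another small proteoglycan, rose by 0.55 and 0.69. Col3a1, a fibrillar collagen, rose by 0.58 in the hemisphere and differed by 0.29 in the vermis (limma adjusted p = 0.123). The list mean ranged from 7.08 to 7.33 in wild type hemisphere and from 6.90 to 7.05 in SmoM2 hemisphere. In the vermis it ranged from 7.27 to 7.39 and from 6.93 to 7.14, so the genotypes did not overlap within either region. The part of pericyte and fibroblast RNA in the Pdgfrb values was not tested.

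**Figure D2:**
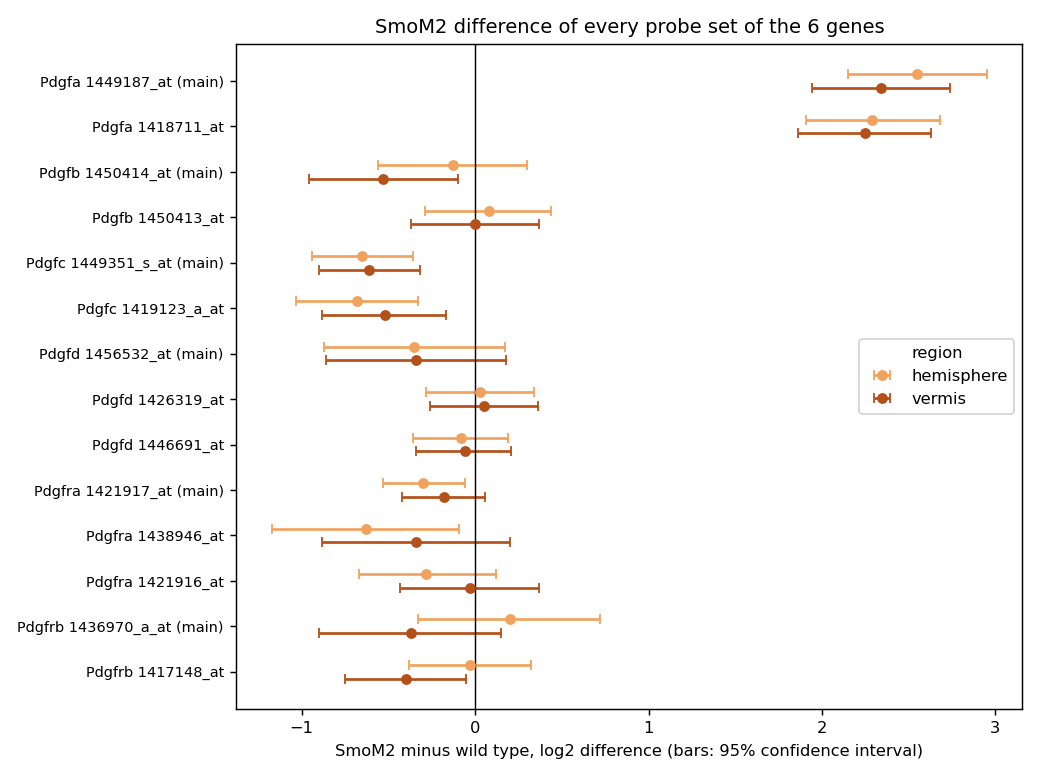
SmoM2 minus wild type for each of the 14 probe sets, as log2 differences with 95% confidence intervals, in the hemisphere (light) and the vermis (dark). Both Pdgfa probe sets lie at 2.25 to 2.55, both Pdgfc probe sets at -0.68 to -0.52, and the others between -0.63 and 0.20. The Pdgfa intervals are a description without a test.

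**Figure D3:**
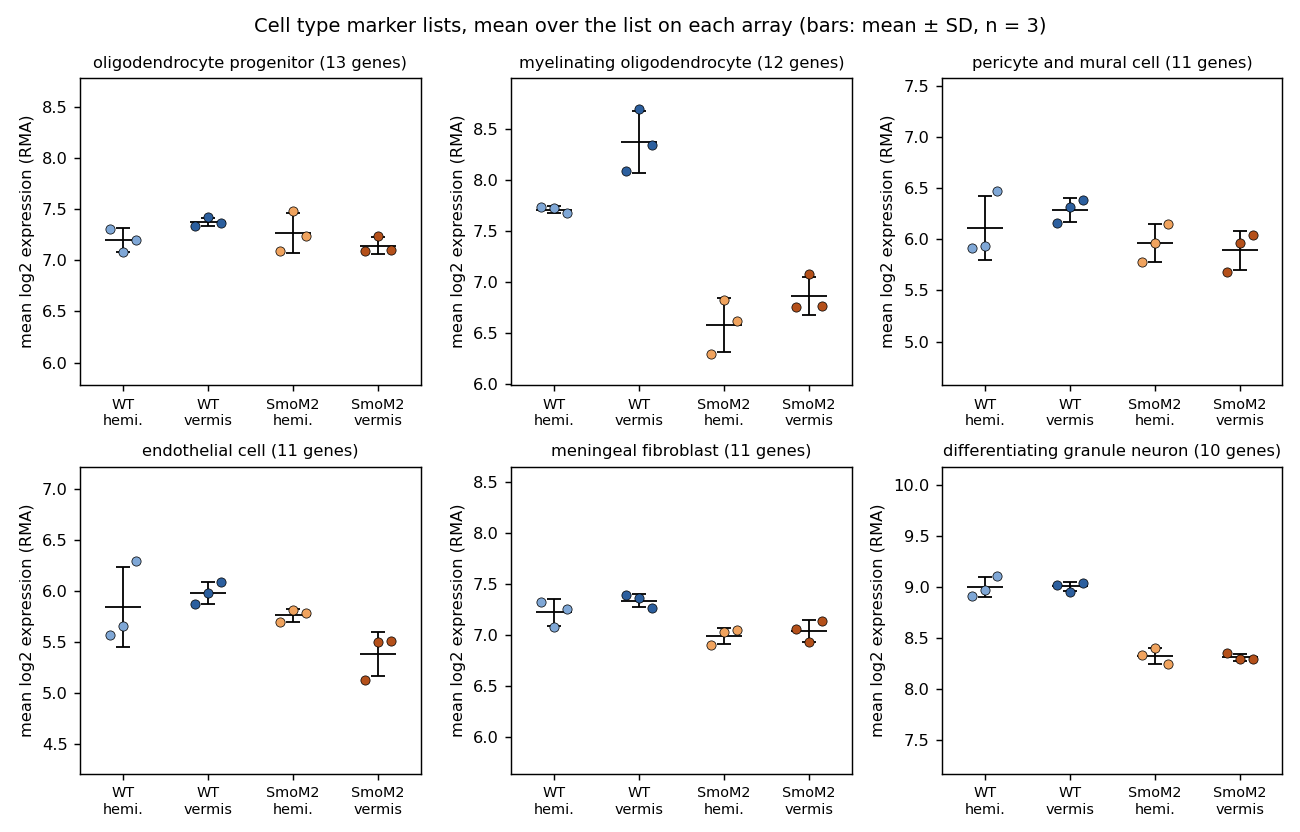
Mean log2 expression over each of 6 marker lists on every array, by group, with mean ± SD of 3 arrays; each vertical axis spans the same number of log2 units. The lists of myelinating cells, meningeal fibroblasts and differentiating granule neurons are separated by genotype in both regions. The lists of oligodendrocyte progenitors, pericytes and endothelial cells overlap between genotypes in the hemisphere but not in the vermis.

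Markers of differentiating granule neurons and of microglia moved beside Pdgfc. For the counts below, 7.62% of all genes were higher and 7.18% lower in the SmoM2 hemisphere, and 7.56% and 9.46% in the SmoM2 vermis. Of 10 neuron markers 6 were lower in each region and 0 higher, with Unc5c, a netrin receptor, at -1.70 and -1.83, Stmn2, a regulator of microtubules, at -1.37 and -1.18, Cntn2, an axonal adhesion molecule, at -0.90 and -1.07, and Neurod2, a neuronal transcription factor, at -0.86 and -0.96. The list mean ranged from 8.91 to 9.10 in wild type and from 8.24 to 8.40 in SmoM2. Of 9 microglial markers the SmoM2 hemisphere had 8 lower and the SmoM2 vermis 6, with Ctss, a lysosomal protease, at -1.31 and -1.08, Tyrobp, a signalling adaptor, at -1.14 and -0.70, C1qa, a complement subunit, at -0.99 and -0.63, and P2ry12, a purine receptor, at -0.98 and -0.87. Their mean ranged from 6.23 to 6.60 in wild type and from 5.36 to 5.90 in SmoM2. Of 10 astroglial markers 4 were lower and 1 higher in the hemisphere and 3 lower and 1 higher in the vermis, with the water channel Aqp4 at -0.86 and -0.85, Gdf10 at -0.80 and -0.71, Aldoc, a glycolytic enzyme, at -0.66 and -0.63 (vermis limma adjusted p = 0.0511), and the glutamate transporter Slc1a2 at 0.76 and 0.54. Of 9 measured markers of Purkinje cells and interneurons the SmoM2 hemisphere had 2 lower and the SmoM2 vermis 4, with 1 higher in each. Gad1, which makes GABA, differed by -0.97 and -1.90, Pcp4 by -0.52 (limma adjusted p = 0.0596) and -1.26, Slc32a1, the vesicular GABA transporter, by -0.72 and -0.95, and Pvalb, a calcium buffer, by 0.78 and 0.45. Of 12 progenitor markers 5 were higher and 3 lower in the SmoM2 hemisphere, and 5 and 2 in the SmoM2 vermis, including Gli1, whose levels are given above. Ccnd1, a cyclin, was at 1.37 and 1.59, Atoh1 at 0.82 and 0.85, and Barhl1, a homeobox factor, at -0.97 and -0.79 (vermis adjusted p = 0.0621). The part of these cells in the fall of Pdgfc was not tested.

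Among 13 genes of ligand processing and receptor partnership, all measured, the hemisphere had 1 that rose and 0 that fell, the vermis 1 and 2, where over all genes the hemisphere had 7.62% higher and 7.18% lower and the vermis 7.56% and 9.46%, so these counts are near the background. The medians were -0.04 and -0.12. The gene that rose was Gas6, a ligand of the TAM receptor tyrosine kinases rather than a PDGF protease, which went from 5.62 to 8.45 (hemisphere, by 2.83) and from 6.19 to 8.62 (vermis, by 2.43). Plat, tissue plasminogen activator, fell by 0.61 in the vermis (limma adjusted p = 0.0188) and differed by -0.44 in the hemisphere (0.0808). Slc9a3r2, a PDZ scaffold that binds receptor tails, fell by 0.46 in the vermis. Furin, which trims PDGF-A and PDGF-B, differed by -0.04 and -0.18, and Plau, a protease that acts on PDGF-D, by -0.10 and 0.22, and none of these passed. Leaving out wild type hemisphere replicate 1 or renewing the quantile normalization raised the hemisphere count to 3, averaging a gene's probe sets raised it to 2, and leaving out SmoM2 vermis replicate 1 lowered the vermis count to 1.

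Of 38 genes of receptor signal transduction 31 were measured, of which 9 rose and 2 fell (hemisphere, all genes 7.62% and 7.18%) or 1 rose and 2 fell (vermis, all genes 7.56% and 9.46%). The medians were 0.12 and 0.14. Those with the largest differences were Fyn, a Src family kinase that fell in both (-0.39 and -0.67), Sos1, an exchange factor for Ras that rose by 0.63 in the hemisphere (limma adjusted p = 0.0498), Pik3r2, a regulatory subunit of PI3 kinase that fell by 0.58 in the vermis, and Map2k2, a kinase of the MAP kinase cascade that rose by 0.50 in the hemisphere (0.0425). Nck2, an adaptor, rose by 0.48 and 0.45 and was the 1 gene to rise in both regions. For the hemisphere against the vermis effect, 0 of the 31 genes passed, as did 0 of all genes (limma, with 564 genes at an unadjusted p under 0.05). The hemisphere count of 11 was not stable. Leaving out wild type hemisphere replicate 2 or 3 gave 6 or 5. Leaving out SmoM2 hemisphere replicate 1, 2 or 3 gave 1, 6 or 2, and SmoM2 vermis replicate 1, 2 or 3 gave 7, 6 or 5. Fitting the hemisphere arrays alone gave 1, renewed quantile normalization 4, no moderation 4, and averaging a gene's probe sets 6. The vermis count of 3 was 5 with array weights.

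The relatives of the family, the VEGF ligands and receptors and the other class III receptor tyrosine kinases with their ligands, had 13 of 15 genes measured. In the hemisphere 4 rose and 1 fell, and the vermis had 4 and 3, where 14.8% and 17% of all genes passed in either direction. Kitl, the ligand of the Kit receptor, rose by 1.85 and 1.73, whereas Kit itself differed by -0.12 and -0.15 and did not pass. Pgf, placental growth factor, rose by 0.87 in the hemisphere and differed by 0.48 in the vermis (limma adjusted p = 0.0781). Csf1r, the receptor of microglia, fell by 1.09 in both regions, beside the microglial markers given above, and Kdr, the main endothelial VEGF receptor, fell by 0.71 in the vermis (adjusted p = 0.0386) beside the endothelial markers. Leaving out wild type hemisphere replicate 2 lowered the hemisphere count to 3, and leaving out wild type vermis replicate 2 or SmoM2 vermis replicate 1 lowered the vermis count to 4.

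**Figure D4:**
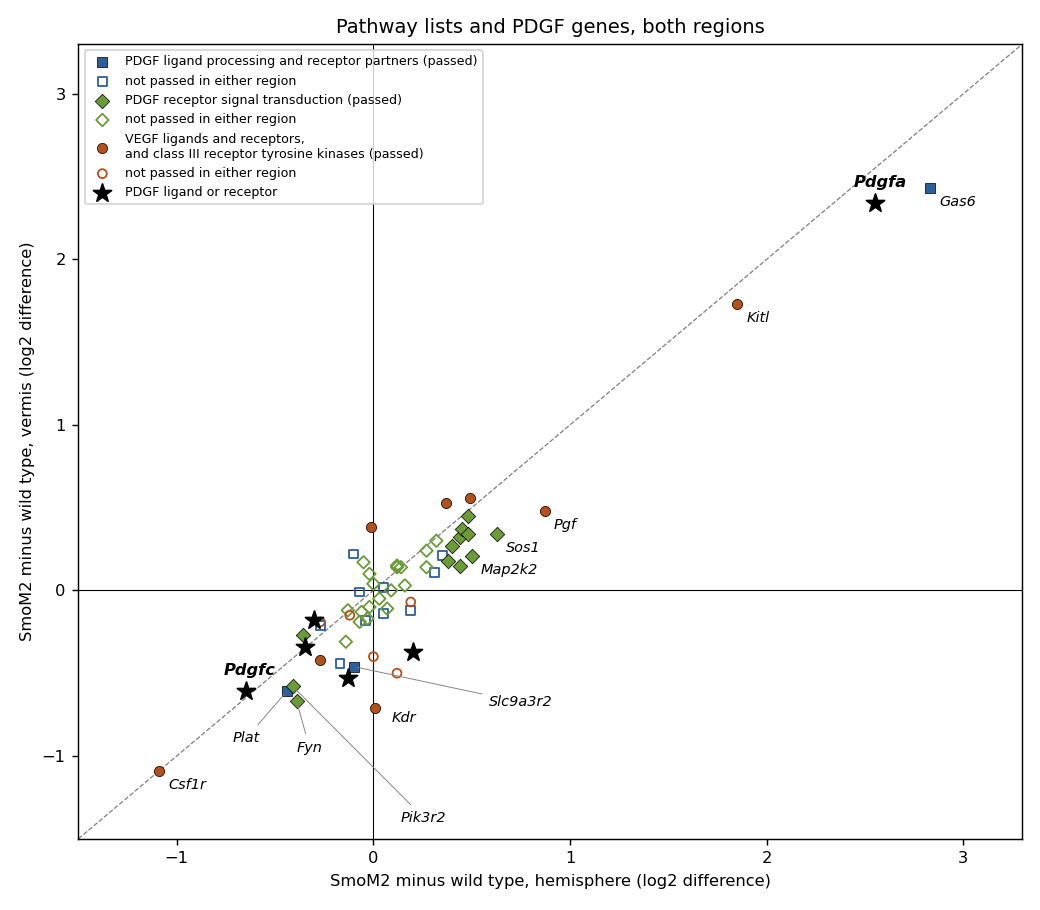
SmoM2 minus wild type in the hemisphere (horizontal) against the vermis (vertical), as log2 differences, for the genes of 3 lists and the 6 PDGF genes (stars). Among the genes of the 3 lists, filled symbols passed in at least 1 region. The stars are filled for all 6 PDGF genes, whether or not they passed. The dashed line marks equal differences. Pdgfa lies with Gas6 and Kitl at the upper right, and the signalling genes lie around the origin.

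The genes most like each family member were found from the mean absolute difference between values centred on each gene's own mean, over the 12 arrays, for members that ranged over at least 1 log2 unit. For Pdgfa, with a range of 3.11, these were Sox18, a transcription factor of endothelium (0.175), Bcar3, an adaptor protein (0.186), Akna (0.191), Gas6 (0.193) and Smad3, a transducer of TGF-beta (0.2). Their mutant differences were 2.20 to 2.83 in the hemisphere and 2.12 to 2.43 in the vermis. That these are near those of Pdgfa follows from choosing the genes by closeness on these same arrays. For Pdgfc they were Gabrb1, a GABA receptor subunit (0.115), Penk, the enkephalin precursor (0.118), Rab15, Kcnd2, a potassium channel, and Gtf2a1l. For Pdgfrb they were Mgat5b, Igfbp4, a binding protein of insulin-like growth factors, Vwa1, Foxc1, a forkhead factor of meninges and pericytes, and Tnk2 (0.119 to 0.126). For Pdgfd they were S1pr1, Ccdc30, Sdc2, Myrip and Vcam1 (0.135 to 0.151). All distances share the same arrays.

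Between regions, 0 of the 6 family members passed in wild type, where 0.187% of all genes passed, and 0 of 6 in SmoM2, where 0.0605% passed. At an unadjusted p under 0.05 on the main probe sets, Pdgfc alone was below in each genotype. The arrays did not overlap between regions for Pdgfc and Pdgfra in wild type, where this held for 8.76% of all genes, and for Pdgfc and Pdgfb in SmoM2, where it held for 10.7%. With the pairing as a random block 1.09% and 0.214% of all genes passed and again 0 of the 6. For the difference between the mutant effects, 0 of 6 passed and 0 of 6 were below 0.05 unadjusted, and the largest values were those of Pdgfrb (0.57) and Pdgfb (0.40, interval -0.20 to 1.00).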

How the data were processed

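Expression was measured on 12 Affymetrix arrays in 4 groups of 3, placed by their titles. The deposited values are log2 expression per probe set, which the authors made with Partek and RMA per the submitters' processing notes. No version is stated there. After RMA there is no detection call, and the method compresses differences at low values. Of 45101 probe sets 34958 had 1 gene symbol in the platform annotation, 932 several and 9211 none. The brightest probe set by mean over 12 arrays stood for each of 18194 genes. Differences were tested with limma 3.58.1 (lmFit, eBayes) in R 4.3.3, fitted to all 4 group means (residual degrees of freedom 8), two-sided, with p-values adjusted over all genes by Benjamini-Hochberg and a threshold of 0.05. Precision is limited by the number of arrays (median SD within a group 0.13). The code was tested on simulated data.

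Groups with the same replicate numbers were checked for pairing. Deviations of same-numbered hemisphere and vermis arrays of 1 genotype correlated at 0.142 to 0.527 (6 pairs). Genotype and replicate number together were therefore also fitted as a random block (correlation 0.359), although the labels do not state this pairing. Between genotypes the numbers do not pair. Per list, up to 4 genes with the largest difference among those that passed were named, and a few others (Sox10, Cspg4, Nkx2-2, Nck2, Furin, Plau, Kit, Pax6, Zic1, Mbp and Fabp7) for their role, after their values were seen. Members and lists were chosen with earlier results of these data known. Promoter windows came from RefSeq, matched by symbol, and were searched for 4 of the 6 genes. Pdgfb had no window there, and Pdgfrb was left out by choice.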

Additional observations from a re-analysis of the deposited data

How the results depend on the processing

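Without any 1 array and under each other setting run, Pdgfa stayed 2.42 to 2.70 higher in the hemisphere and 2.16 to 2.44 in the vermis, and Pdgfc kept its calls in both. Members that did not pass were less settled. Without 1 array, differences ranged in the hemisphere from -0.38 to 0.03 (Pdgfb), -0.62 to 0.02 (Pdgfd), -0.37 to -0.22 (Pdgfra) and -0.10 to 0.52 (Pdgfrb), and in the vermis from -0.71 to -0.37 (Pdgfb). The causes of the following changes were not tested. Pdgfb in the vermis (-0.53) passed with the fixed replicate block (limma adjusted p = 0.0398) and with only the groups compared. With array weights it was -0.58. Pdgfra in the hemisphere passed after quantile normalization (-0.34) and with trended and robust moderation (-0.30).

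Between regions, values without 1 array ranged from -0.29 to 0.15 (Pdgfb) and -0.58 to 0.06 (Pdgfd) in wild type and from -0.21 to 0.05 (Pdgfa) and -0.03 to 0.14 (Pdgfra) in SmoM2. The difference between mutant effects ranged from -0.13 to 0.08 (Pdgfc) and -0.28 to 0.36 (Pdgfd, 0.09 with array weights). In the averaged contrasts, chosen after seeing the data, Pdgfrb averaged over regions ranged from -0.23 to 0.07 (0.01 with array weights), and over genotypes from -0.18 to 0.13 (0.09 with a gene's probe sets averaged).

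Of all genes, 2694 passed in the hemisphere. Leaving out wild type hemisphere replicate 1 gave 4276, SmoM2 hemisphere replicate 1 or 3 gave 1633 or 1705, and only the groups compared gave 1753. In the vermis, against 3096, leaving out wild type vermis replicate 2 or 3 gave 1873 or 1920 and SmoM2 vermis replicate 1 or 2 gave 1795 or 1756, in a range of 1756 to 3827. Between regions in wild type (34) it was 8 to 58 without 1 array, 198 with the random replicate block, 3 with only the groups compared, 19 with only brighter genes, 17 with every probe set tested, 5 without moderation and 15 with array weights. In SmoM2 (11) it was 2 to 18 without 1 array, 39 with the random replicate block, 1 without moderation and 42 with array weights. The difference between mutant effects had 0 to 1 and cannot be fitted with only 2 groups. The random block changed no call of a member in the planned comparisons. Pdgfd was too dim for the fit on brighter genes and has no value there.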
